A study of Saccharomyces cerevisiae with 24 samples.

Results

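The comparison described here exchanged only the coding region of *FZF1* while the 5′ noncoding region stayed that of *S. cerevisiae*. It set the 3 arrays of the C.P. chimera (*S. cerevisiae* noncoding region joined to the *S. paradoxus* coding region) against the 3 arrays of the full length *S. cerevisiae* allele, all at 15 min after sodium sulfite at 1 mM. These are 6 of the 24 arrays of the series, chosen by their sample titles, and all 4073 named genes on them were read, of which 4071 could be tested. Fzf1 is a zinc finger transcription factor of budding yeast. It activates *SSU1*, which encodes the plasma membrane pump that carries sulfite out of the cell, and *YHB1*, which encodes the flavohaemoglobin that detoxifies nitric oxide. Sulfite is toxic to yeast at low pH, where it enters the cell, and it is also an intermediate of sulfate assimilation on the way to methionine and cysteine.

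All strains were haploid and of the S288c background, with *ura3-52*, and their native *FZF1* had been deleted with KANMX. Each allele was put back at the *ura3* locus together with the plasmid pRS306, which carries *URA3*, as the whole gene region with short ends of the neighbouring genes *ZRT1* and *HXK2*. The 4 alleles were those of *S. cerevisiae* and *S. paradoxus*, the C.P. chimera and the P.C. chimera, in which the *S. paradoxus* noncoding region drives the *S. cerevisiae* coding region, and all were sampled at 0 and 15 min after sulfite in rich medium with tartaric acid at low pH, with 3 arrays a group. By the methods the 3 replicates were independent, and no culture without sulfite was sampled at 15 min, so a response to sulfite cannot be told apart from 15 min in culture. Each array gave the log2 ratio of a sample over a pool of all RNA samples, so values near 0 are near the level of the pool. In both groups compared, replicates 1 and 2 had the sample in Cy3 and replicate 3 had it in Cy5.

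The 2 Cy3 arrays of a group correlated at 0.904 for C.P. and 0.926 for *S. cerevisiae* over the genes, and the Cy5 array of a group correlated with them at between 0.699 and 0.776. Over all 4071 genes, the array pair with the widest gap between C.P. and *S. cerevisiae* was the Cy5 pair in 55.8% of genes. The median size of the gap was 0.12 and 0.082 in the Cy3 pairs with numbers 1 and 2, and 0.19 in the Cy5 pair. At 0 min, the array labelled *S. cerevisiae* replicate 2 stood apart, with an *FZF1* value of −3.63 beside 0.18 and −0.11 on the other 2 arrays of its group and −4.40, −4.92 and −2.90 on the C.P. arrays at 0 min. Its *URA3* value was 1.20, beside −1.97 and −1.89. Its *FZF1* value thus goes against its label, and whether the label is right was not tested. It enters the comparison at 15 min only through the spread that the fit shares over all groups.

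*FZF1* was the only gene of 4071 past the test at 15 min (0.0246% of genes; limma on 8 group means, adjusted p under 0.05 by Benjamini-Hochberg). It read −5.04, −3.95 and −2.47 on the C.P. arrays and 1.01, 0.74 and 0.95 on the *S. cerevisiae* arrays. All 3 C.P. arrays lay far below, and the highest of them was the Cy5 array. The difference was −4.72 ± 0.73 (log2, SE, n = 3 and 3), with a 95% interval from −6.25 to −3.20 and an adjusted p of 0.0114. The probes of this array were designed on *S. cerevisiae*, so the level of *FZF1* cannot be compared between the coding regions of different species, and the value is used only to check the labels. In the *S. paradoxus* allele at 15 min, which has the same coding region, *FZF1* read −4.98, −3.92 and −4.43. The P.C. chimera, with the *S. cerevisiae* coding region, read 2.21, 2.08 and 1.84. The 6 arrays at 15 min labelled with the *S. paradoxus* coding region thus all lay below the 6 labelled with that of *S. cerevisiae*. The call did not hold when 1 of the 6 arrays compared was left out, except for C.P. replicate 3 (adjusted p = 0.00421). The adjusted p was 0.0891 without C.P. replicate 1 and 0.101 without C.P. replicate 2. It was 0.0965, 0.068 and 0.0884 without *S. cerevisiae* replicate 1, 2 or 3, with differences from −5.40 to −4.12 over these 6 fits. Without the array labelled *S. cerevisiae* replicate 2 at 0 min, which stood apart, the call held (adjusted p = 5.41e-05 from limma).

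For every other gene the adjusted p was at least 0.9996, and 69 genes (1.69%) had an unadjusted p under 0.05. Chance alone gives 204 genes at that limit, more than were found. The count was 174 with a term for the dye, 201 with terms for dye and replicate number, and 248 with weighted arrays. The p values and intervals given here are those of the main fit and change with such terms. The cause was not tested. The intervals bound how large a difference the arrays could have missed. The 95% interval had a median half-width of 0.32 on the log2 scale and lay within 1 unit on either side of 0, a change of 2-fold, for 3955 of 4071 genes (97.2%). It lay within 0.5 units for 2769 genes. The middle 95% of the differences ran from −0.29 to 0.28. The 3 and 3 arrays did not overlap for 291 genes, 154 with C.P. higher (3.78% of genes tested) and 137 with C.P. lower (3.37%). On the values without new centring, these counts were 194 and 105. The Cy5 pair had the widest gap in 74.7% of the former and 63.5% of the latter. Its part in these counts was not tested. Arrays without overlap have p = 0.1 in the exact permutation test, two-sided, the smallest that 3 against 3 arrays allow. Arrays that could be exchanged freely would separate at that rate by chance, and fewer genes than that were found. The arrays here share dye and replicate number, so that rate is only a guide.

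**Figure D1:**
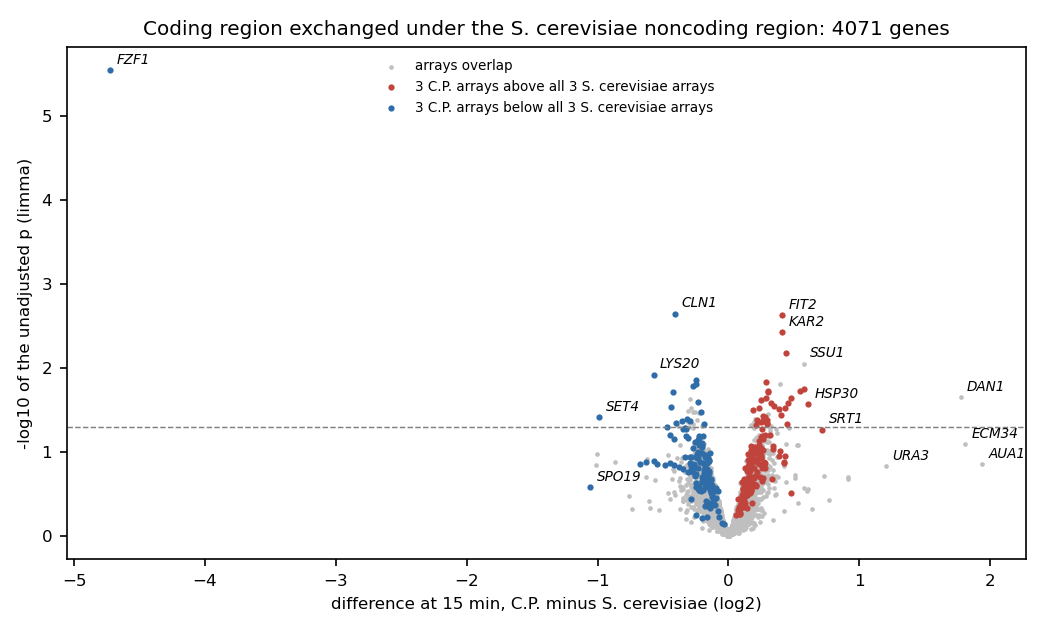
Difference at 15 min between the C.P. and *S. cerevisiae* alleles (log2, horizontal) against −log10 of limma's unadjusted p (vertical) for 4071 genes, 1 point a gene, coloured where the 3 and 3 arrays do not overlap. The dashed line marks an unadjusted p of 0.05. *FZF1* lies alone at −4.72, and most other genes lie within 1 unit of 0.

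*SSU1*, the sulfite pump and main known target of Fzf1, read −0.026, 0.89 and 0.89 on the C.P. arrays and 0.023, 0.13 and −0.13 on the *S. cerevisiae* arrays. C.P. replicates 2 and 3 lay above every *S. cerevisiae* array, and C.P. replicate 1 lay among them, so the groups overlapped. The difference was 0.58 ± 0.20 (1.49-fold, 95% interval 0.16 to 0.99), which did not pass the test (unadjusted p = 0.00883, adjusted p = 0.9996 from limma) and had p = 0.3 in the exact permutation test of 3 against 3 arrays, two-sided, whose smallest p is 0.1. Without C.P. replicate 1 the difference was 0.88 (adjusted p = 0.0891), and over 20 alternative settings it ran from 0.36 to 0.88 with no call. At 0 min *SSU1* read −1.66, −1.51 and −1.31 for C.P. and −1.79, −1.38 and −1.73 for *S. cerevisiae*, which overlapped. From 0 to 15 min it rose by 2.08 with the C.P. allele (adjusted p = 1.83e-08) and by 1.64 with the *S. cerevisiae* allele (adjusted p = 4.89e-07), both from limma. The difference between these rises was 0.44 (adjusted p = 0.9998).

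*YHB1* read −0.63, −0.53 and −0.46 with the C.P. allele and −0.60, −0.51 and −0.27 with the *S. cerevisiae* allele, overlapping ranges with a difference of −0.083 ± 0.12 (95% interval −0.34 to 0.17). It fell from 0 to 15 min by 0.72 with C.P. and by 0.83 with *S. cerevisiae* (adjusted p = 3.99e-05 and 6.36e-06 from limma). These were the only members measured here of a list of 7 genes with *FZF1* and its known targets.

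The loci that the construct touched gave small differences except at *URA3*, the marker for uracil synthesis. It read −0.40, 0.52 and 2.30 for C.P. and −0.46, −0.55 and −0.19 for *S. cerevisiae* at 15 min. C.P. replicate 3 stood apart, as it did at 0 min, where C.P. read −1.62, −0.66 and 1.34. The number of construct copies in these strains was not tested, and since this array is also the Cy5 array of C.P., its part in the wide gaps of the Cy5 pair cannot be told apart from that of the dye. The difference of 1.21 ± 0.80 did not pass the test. *ZRT1*, a zinc transporter gene beside native *FZF1*, differed by 0.027 ± 0.24, and *HXK2*, the hexokinase gene on its other side, by 0.053 ± 0.13. *GEA2* and *TIM9*, the neighbours of *URA3*, differed by 0.073 and 0.067, all with overlapping arrays. *RIP1*, a respiratory subunit gene close by, read 0.57, 0.62 and 0.56 for C.P. and 0.56, 0.42 and 0.20 for *S. cerevisiae*, a difference of 0.19 ± 0.13 with no overlap. The closest arrays read 0.5614 and 0.5594, and the groups overlapped after quantile normalization and on the values without new centring.

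**Figure D2:**
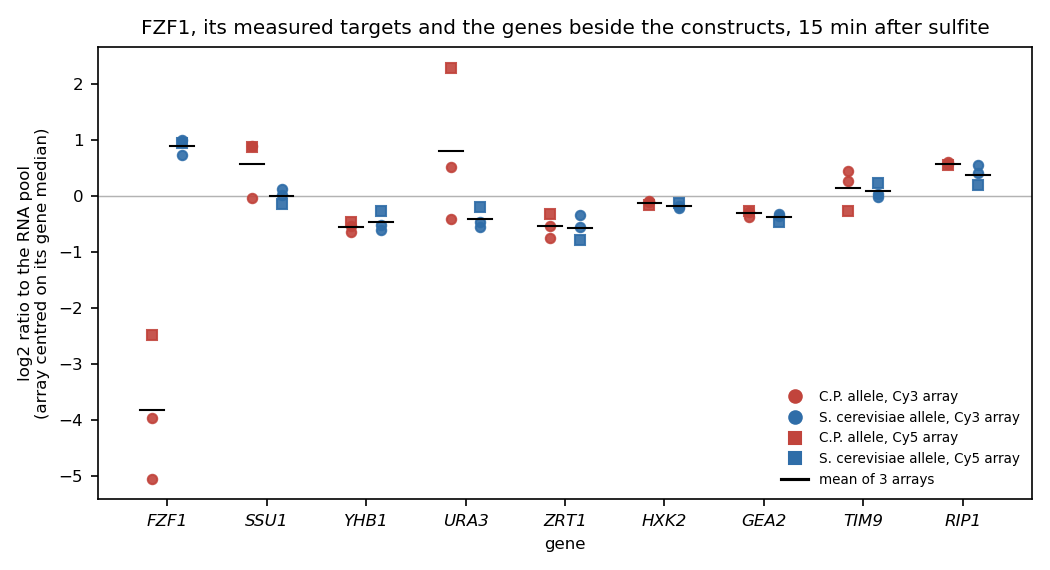
Log2 ratio to the RNA pool (vertical) on each of the 6 arrays at 15 min for *FZF1*, the measured targets *SSU1* and *YHB1*, the marker *URA3* and the genes beside the native and the new locus. Circles are Cy3 arrays, squares Cy5 arrays and lines means of 3 arrays. *SSU1* of C.P. sits at 0.89 on 2 arrays and among the *S. cerevisiae* arrays on the other, and *URA3* of C.P. reaches 2.30 on replicate 3.

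Genes with a large mean difference were mostly genes whose replicates disagreed. Only 8 genes differed by more than 1, and apart from *FZF1* and *SPO19* their arrays overlapped. *AUA1* differed by 1.94 through a value of 3.50 on C.P. replicate 1, beside −0.12 and −0.035 on the other C.P. arrays. *ECM34* (1.81) and *DAN1* (1.78), a cell wall mannoprotein gene of anaerobic growth, were likewise highest on C.P. replicate 1, at 2.80 and 1.92. *DAN1* differed by −0.28 when read from its higher numbered feature alone. *JIP3* and *ECM11* differed by −1.01 and −1.0. *AUA1*, *ECM34*, *JIP3* and *ECM11* are named after their values were seen.

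Among genes whose arrays did not overlap, *FIT2*, *KAR2* and *CLN1* had the smallest p after *FZF1*. *CLN1*, a G1 cyclin, read −0.57, −0.46 and −0.76 for C.P. and −0.30, −0.19 and −0.066 for *S. cerevisiae*. Every C.P. array was the lower, with a difference of −0.40 ± 0.12 (unadjusted p = 0.00224). *KAR2*, the Hsp70 chaperone of the endoplasmic reticulum, read 0.47, 0.52 and 0.77 for C.P. and 0.33, 0.10 and 0.095 for *S. cerevisiae*. Here every C.P. array was the higher, by a mean of 0.41 ± 0.13. None of these passed the test after adjustment.

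The 12 highest differences without overlap ran from 0.42 to 0.72. *HSP30*, a stress protein of the plasma membrane, read 1.16, 0.89 and 1.65 for C.P. and 0.85, 0.26 and 0.77 for *S. cerevisiae* (difference 0.61 ± 0.26). *PDR5*, the main pleiotropic drug pump, read −0.32, −0.31 and −0.16 against −0.56, −0.69 and −0.92 (0.46 ± 0.19). *YDC1*, a dihydroceramidase gene of sphingolipid turnover, read 0.65, 0.51 and 0.91 against 0.40, 0.22 and 0.13 (0.44 ± 0.14). In each of the 3 genes the widest gap between arrays of the same number was that of the Cy5 arrays. *SRT1*, a dehydrodolichyl diphosphate synthase gene, had the highest difference at 0.72, with −1.10 on *S. cerevisiae* replicate 1 beside −0.16 and −0.32. The remaining genes were *TIS11* (0.58), *SOF1* (0.54), *MF(ALPHA)2* (0.48), *GFD2* (0.48), *SIT1* (0.45), *BRE2* (0.44), *PDC6* (0.43) and *ECM8* (0.42). *SOF1* is a ribosome biogenesis gene, *BRE2* encodes a subunit of the COMPASS histone methyltransferase, and *PDC6* encodes the minor pyruvate decarboxylase.

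After *FZF1*, the lowest differences without overlap ran from −1.06 to −0.44. *SPO19* (−1.06 ± 0.92), *YSW1* (−0.67 ± 0.44) and *SPO21* (−0.63 ± 0.40) are genes of spore formation, which growing haploid cells do not undergo. *SPO19* read −1.42, −1.13 and −0.88 for C.P. and −0.72, −0.65 and 1.10 for *S. cerevisiae*, so its difference was mostly that of the Cy5 array. *SET4*, a SET domain gene, read −0.26, −0.69 and −0.15 against 0.62, −0.072 and 1.31 (difference −0.99 ± 0.45). *LYS20*, a homocitrate synthase gene of lysine synthesis, read 0.29, 0.53 and 0.17 for C.P. and 0.94, 0.67 and 1.10 for *S. cerevisiae*. Each C.P. array was the lower, by a mean of −0.57 ± 0.21 (unadjusted p = 0.012). *FBP1* (−0.57), *INO1* (−0.55), *STL1* (−0.48), *STR3* (−0.47), *PDS1* (−0.45) and *ARG1* (−0.44) followed. *FBP1* is the gluconeogenic bisphosphatase, *INO1* makes inositol phosphate, *STL1* imports glycerol and *PDS1* is securin. For *FBP1*, *INO1* and *STL1* C.P. replicate 1 was far below the other C.P. arrays, at −0.59, −0.84 and −0.45.

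**Figure D3:**
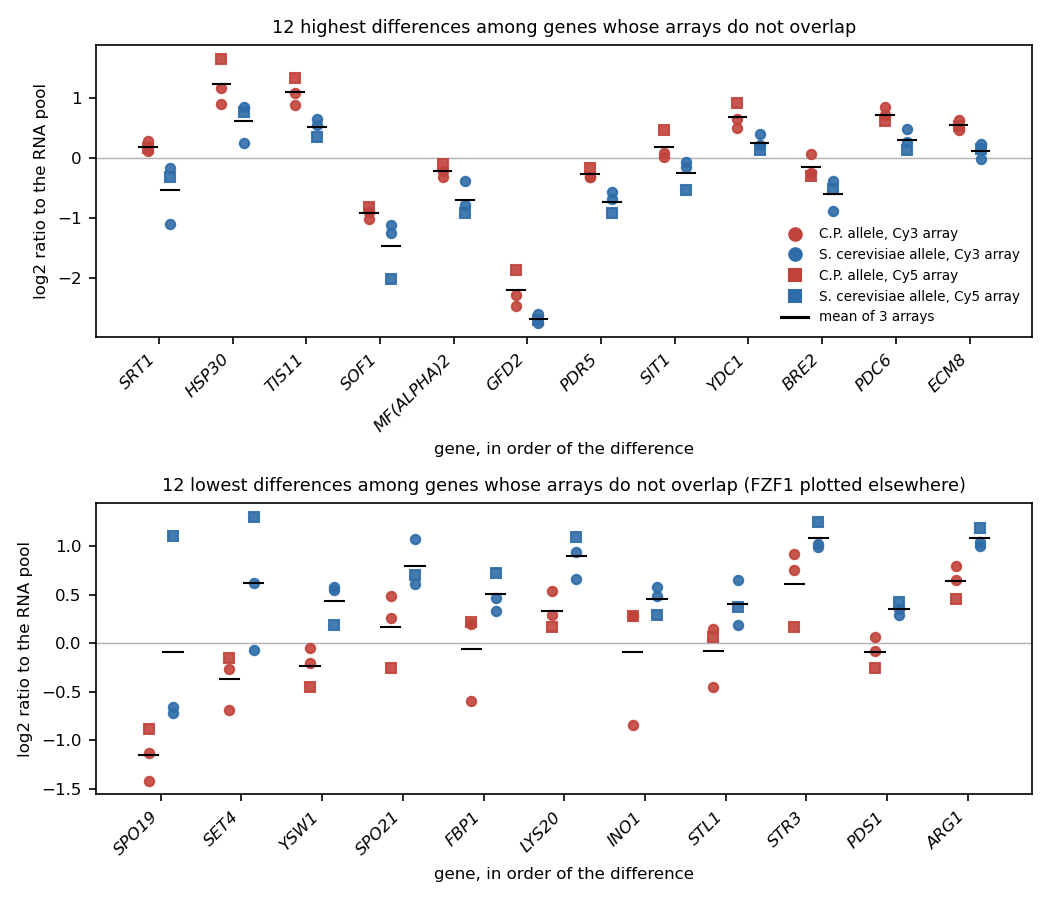
Log2 ratio to the RNA pool (vertical) on the 6 arrays at 15 min for the 12 genes with the highest and the 11 with the lowest difference after *FZF1*, among genes whose 3 C.P. and 3 *S. cerevisiae* arrays do not overlap. Circles are Cy3 arrays, squares Cy5 arrays and lines means of 3. *SRT1* has the highest difference, 0.72, and *SPO19* the lowest, −1.06, with its Cy5 array of *S. cerevisiae* apart from the others at 1.10.

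Genes were next read by 40 lists of pathways and processes, each described by its counts and its median beside those of all genes (median difference 0.0093, 53.0% of genes above 0). Iron genes had the highest share without overlap in the direction of C.P., and amino acid synthesis genes were among the highest in the other direction. Apart from *FZF1* itself, no member of any list passed the test.

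Of 30 iron uptake genes, 8 were higher on all C.P. arrays and 0 lower, 26.7% of the list beside 3.78% of all genes. Their median difference was 0.089, with 23 of 30 above 0. *TIS11*, which binds and destabilizes mRNAs of iron-using proteins when iron is scarce, read 1.08, 0.88 and 1.33 for C.P. and 0.65, 0.54 and 0.35 for *S. cerevisiae* (difference 0.58 ± 0.22). *FIT2*, a cell wall mannoprotein gene that helps retain siderophore iron, read 0.55, 0.55 and 0.81 against 0.26, 0.38 and 0.045 (0.41 ± 0.12, unadjusted p = 0.00235). *SIT1*, a siderophore transporter gene, read 0.024, 0.081 and 0.47 against −0.070, −0.15 and −0.54 (0.45 ± 0.21). The other 5 were *FTH1* (0.39), *HMX1* (0.32), *FRE1* (0.30), *SMF3* (0.26) and *MRS4* (0.17), named after their values were seen. *FRE1* is a ferric reductase, *HMX1* a haem oxygenase, and *FTH1*, *SMF3* and *MRS4* move iron across the membranes of vacuole or mitochondria. The list's median gap was −0.027 and 0.047 in the Cy3 pairs and 0.30 in the Cy5 pair. Most of the shift thus came from the Cy5 arrays. These are also the arrays of replicate 3, so the part of the dye in the shift cannot be told apart from that of the replicate. The median difference was 0.066 without C.P. replicate 3, 0.102 without *S. cerevisiae* replicate 3 and −0.0047 on the Cy3 arrays alone. The count was 8 after quantile normalization, beside 154 of all 4071 genes, and 10 on the values without new centring, beside 194. In a list of 21 genes of zinc, copper and other metals 3 were higher and 1 lower, with a median of 0.089. These are 14.3% and 4.76%, beside 3.78% and 3.37% of all genes. The lower gene was *INO1*, which makes inositol phosphate.

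Of 55 amino acid synthesis genes outside the arginine and sulfur pathways, 10 were lower on all C.P. arrays (18.2% beside 3.37% of all genes) and 1 was higher. Their median difference was −0.097 and 14 of 55 were above 0. *HIS4*, a histidine synthesis gene, read 0.68, 0.88 and 0.26 for C.P. and 1.01, 0.92 and 0.94 for *S. cerevisiae* (difference −0.35 ± 0.16). The lower genes also held *LYS20*, *LYS2*, *HIS3*, *LEU4*, *ILV3*, *SER1*, *THR1*, *ASN2* and *GLN1*, with differences from −0.57 for *LYS20* to −0.14 for *LEU4*. The gene in the other direction was *GLT1*, glutamate synthase, at 0.16. Those not given above were named after their values were seen. The list's median gap was −0.16, −0.040 and −0.049 in the pairs numbered 1, 2 and 3, of which the last is the Cy5 pair. The median difference was −0.039 without *S. cerevisiae* replicate 3, −0.148 without C.P. replicate 3 and −0.111 on the Cy3 arrays alone. The count was 8 after quantile normalization, beside 138 lower among all 4071 genes, and 7 without new centring, beside 105.

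Of 13 arginine synthesis genes, 2 were lower without overlap (15.4% beside 3.37% of all genes) and the median was −0.089. *ARG1*, argininosuccinate synthase, read 0.65, 0.80 and 0.46 for C.P. and 1.01, 1.04 and 1.19 for *S. cerevisiae*. *ARG3*, ornithine carbamoyltransferase, read 0.47, 0.57 and 0.29 against 0.65, 0.97 and 0.92 (difference −0.40 ± 0.19). Every C.P. array was the lower in both genes, by up to 0.73 for *ARG1*. Both are among genes that rose strongly from 0 to 15 min with the *S. cerevisiae* allele, by 4.25 and 2.50.

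The sulfur genes belong to the pathway that has sulfite as an intermediate, and no member of their lists passed the test. Among 11 sulfate assimilation genes the median was 0.036, and *MET3*, ATP sulfurylase, was the only gene higher without overlap (0.12, named after its value was seen). That is 9.09% of the list, beside 3.78% of all genes. *SUL1*, a sulfate permease, read 1.02, 0.98 and −0.047 for C.P. and 0.12, −0.032 and −0.87 for *S. cerevisiae*, overlapping through the Cy5 array of C.P. (difference 0.91 ± 0.71, 95% interval −0.565 to 2.40). Of 18 genes of the methionine cycle and transsulfuration, 4 were lower without overlap (22.2% beside 3.37% of all genes) and 0 higher, with a median of −0.052. *STR3*, cystathionine beta-lyase, read 0.75, 0.92 and 0.17 for C.P. and 0.99, 1.02 and 1.25 for *S. cerevisiae*, with the widest gap in the Cy5 pair. The others were *STR2* (−0.23), *MET13* (−0.21) and *MET7* (−0.14), the first 2 named after their values were seen. *MUP3*, a methionine permease, read 0.49, 0.41 and 0.47 for C.P. and 0.26, 0.18 and 0.14 for *S. cerevisiae* (0.26 ± 0.12, no overlap).

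Of 21 glutathione and thioredoxin genes 2 were higher without overlap (9.52%, beside 3.78% of all genes) and 0 lower. The median of the list was 0.049, with values between −0.20 and 0.22. *GRX4* and *GRX5*, glutaredoxins that work with iron-sulfur clusters, differed by −0.20 and 0.22. None of the 16 peroxide and superoxide genes was without overlap, and their differences ran from −0.24 (*AHP1*) to 0.16.

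Among 29 genes of weak acid and drug efflux, which include *SSU1*, 3 were higher without overlap (10.3% beside 3.78% of all genes) and 0 lower, with a median of 0.076. They were *PDR5*, *PDR15* (0.39) and *STB5* (0.086), the last 2 named after their values were seen. *PDR15* is a drug pump related to *PDR5*, and its Cy5 arrays lay furthest apart, at 0.74 and −0.13. Of 28 heat shock and chaperone genes 2 were higher and 1 lower (7.14% and 3.57%, beside 3.78% and 3.37% of all genes), with a median of 0.13. The gap of this list was 0.025 and 0.052 in the Cy3 pairs and 0.38 in the Cy5 pair. The 48 general stress genes, with a median response of 2.34 in the *S. cerevisiae* allele, differed by a median of 0.073. Of these 0 were higher and 1 was lower without overlap (0% and 2.08%, beside 3.78% and 3.37% of all genes).

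The medians of the carbon lists lay between −0.074 and 0.055. Of 22 gluconeogenesis and glyoxylate genes 3 were lower without overlap (13.6%, beside 3.37% of all genes) and 0 higher. *CAT8*, their activator, read 0.078, 0.19 and 0.11 for C.P. and 0.39, 0.45 and 0.48 for *S. cerevisiae* (difference −0.32 ± 0.14). *PCK1*, phosphoenolpyruvate carboxykinase, differed by −0.62 with overlap. Of 23 glycolysis genes 2 were higher without overlap (8.7%, beside 3.78% of all genes), among them *GPM2* (0.28). Of 23 hexose transport genes 1 was (4.35%), *HXT5* (0.42). Respiratory and citric acid cycle genes were above 0 in 42 of 50 with a median of 0.055, and *COX6*, a cytochrome oxidase subunit, differed by 0.21. Mitochondrial ribosome genes were above 0 in 42 of 45, with a median of 0.11. Of these 4 were higher without overlap (8.89%, beside 3.78% of all genes), *MRPL19* at 0.20 among them. The gaps of the latter list were 0.23, 0.050 and 0.098 in the pairs 1, 2 and 3.

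Of 34 cytosolic ribosomal protein genes only 3 were above 0, with a median of −0.17. The gap was −0.017 and −0.0052 in the Cy3 pairs and −0.52 in the Cy5 pair. Only 1 of these genes was without overlap, lower with C.P. (2.94%, beside 3.37% of all genes). The 10 histone genes were all below 0 on average, with a median of −0.16, and their gap was 0.016, −0.035 and −0.34 in the pairs 1, 2 and 3. Members of both lists have near-identical copies whose probes may cross-hybridise. The 86 ribosome biogenesis genes, with a median response of −2.58 in the *S. cerevisiae* allele, differed by 0.051. Their median gap was −0.10, −0.049 and 0.29. In each of these 3 lists the Cy3 and the Cy5 arrays thus gave different values. The Cy5 arrays are also those of replicate 3, so the part of the dye cannot be told apart from that of the replicate.

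Of 39 cell cycle genes 1 was higher and 2 were lower without overlap (2.56% and 5.13%, beside 3.78% and 3.37% of all genes). The median of this list was −0.049. Of 37 mating type and pheromone genes 1 was higher and 2 were lower (2.7% and 5.41%). *MF(ALPHA)2* was the higher gene, an alpha-factor gene in a strain of mating type a, and *MF(ALPHA)1* read −0.38, 0.24 and 0.35 against 2.42, −0.13 and 0.51. That spread within a group was wider than the difference of −0.86. *HMRA1*, a silent mating cassette gene, differed by 0.40 with overlapping arrays. *COS8*, a subtelomeric gene, read 0.064, −0.018 and 0.20 for C.P. and 0.51, 0.41 and 0.64 for *S. cerevisiae* (difference −0.44 ± 0.19). *HSH155*, a splicing factor gene, read −0.74, −0.70 and −0.58 against −0.37, −0.43 and −0.49, a difference of −0.24 ± 0.091. Lists of ergosterol, proteasome, autophagy, peroxisome, phosphate, purine, trehalose and cell wall genes had medians between −0.026 and 0.066.

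**Figure D4:**
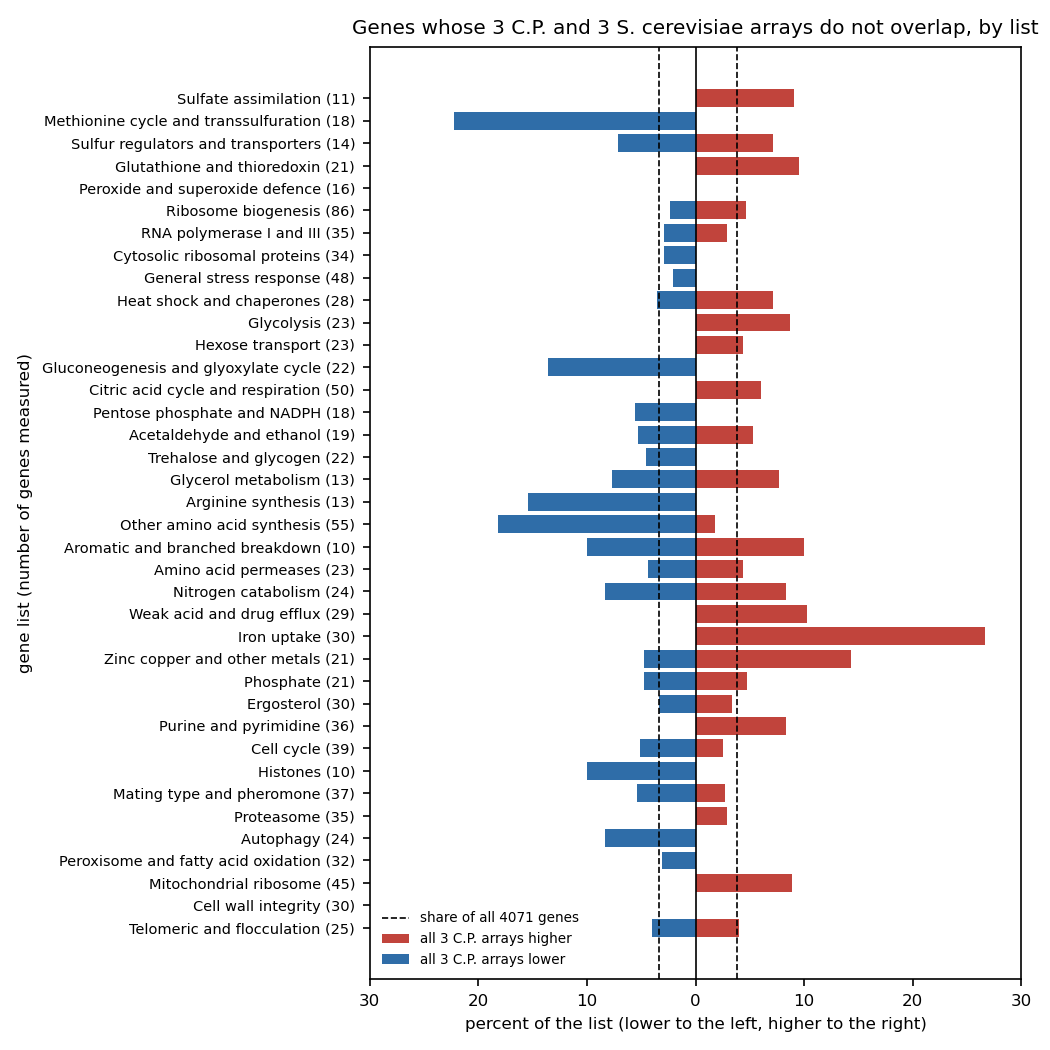
Percent of each gene list whose 3 C.P. arrays at 15 min were all higher (to the right) or all lower (to the left) than the 3 *S. cerevisiae* arrays, for the 38 lists with at least 10 genes measured (number in brackets). The dashed lines are the shares of all genes, 3.78% higher and 3.37% lower. Iron uptake has 26.7% higher, methionine and transsulfuration 22.2% lower and other amino acid synthesis 18.2% lower. The bars carry no test.

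The change from 0 to 15 min was large in both strains. From 0 to 15 min 2375 genes passed the test with the *S. cerevisiae* allele (58.3%) and 2387 with the C.P. allele (58.6%). Of these 2122 genes passed in both with the same sign, 89.3% of the former and 88.9% of the latter, and 0 passed with opposite signs. Without the array labelled *S. cerevisiae* replicate 2 at 0 min, a setting added after seeing the data, 2248 genes passed with the *S. cerevisiae* allele and 2081 in both with the same sign. The responses correlated at 0.969 across genes, as a description, since all arrays share the pool. Genes were also classed by the mean response of the *S. paradoxus* and P.C. alleles, on arrays that the comparison does not use. The 118 genes induced at least 4-fold there had per-array medians of 0.75, 0.69 and 0.89 for C.P. and 0.73, 0.67 and 0.74 for *S. cerevisiae*. Their median difference was 0.053, and 11 were higher and 12 lower without overlap (9.32% and 10.2%, beside 3.78% and 3.37% of all genes). Their median change from 0 to 15 min was 2.73 with the *S. cerevisiae* allele and 2.51 with C.P., a description with no test. In the class of 106 genes that fell there by 4-fold or more, the medians were −1.81, −1.75 and −1.57 for C.P. and −1.68, −1.71 and −1.91 for *S. cerevisiae*, with a median difference of 0.055 and median changes of −2.41 and −2.65. In the latter class the Cy3 arrays of C.P. were the lower and its Cy5 array was the higher. At the 4-fold limit the 95% interval lay within 1 unit for 113 of the induced and 104 of the repressed genes.

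The difference between the responses of the 2 strains passed the test for 0 genes (0%, limma), with 103 (2.53%) at an unadjusted p under 0.05 and a count of 1 with array weights. Before sulfite, at 0 min, the C.P. and *S. cerevisiae* alleles also differed past the test for 0 genes (0%, limma). There 173 genes (4.25%) had an unadjusted p under 0.05, and 2 passed with a dye term. In each comparison chance alone gives 204 genes at that unadjusted limit. *FZF1* differed by −2.88 ± 0.73 at 0 min (adjusted p = 0.421). Without the array labelled *S. cerevisiae* replicate 2, whose *FZF1* value stood apart, it differed by −4.10 ± 0.56 (adjusted p = 0.00242) and was the only gene called. *LOC1*, a gene of ribosome assembly named after its value was seen, had the smallest adjusted p at 0 min, 0.0579. It read 0.29, 0.28 and 0.29 for C.P. and 1.59, 1.29 and 0.99 for *S. cerevisiae*, a difference of −1.0 ± 0.18.

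The same exchange was made under the *S. paradoxus* noncoding region, between the *S. paradoxus* allele and the P.C. chimera, on 6 other arrays at 15 min. There 84 genes passed the test (2.06%), 25 higher (0.614%) and 59 lower (1.45%) with the *S. paradoxus* coding region, and 281 with the replicate number as a block. That count ranged from 7 without P.C. replicate 1 to 688 without *S. paradoxus* replicate 3. It was 12 without P.C. replicate 3, 280 without P.C. replicate 2, 9 without *S. paradoxus* replicate 1 and 10 without replicate 2. For *SSU1* that exchange gave 0.94, 1.04 and 1.46 with the *S. paradoxus* coding region and 0.54, 0.48 and 0.14 with that of *S. cerevisiae*, without overlap. The difference was 0.76 ± 0.20 (adjusted p = 0.0501, or 0.0265 with the block, and 0.0185 to 0.21 over the other settings). It was in the direction seen under the *S. cerevisiae* noncoding region, 0.58, and the test of the difference between the exchanges gave −0.18 (adjusted p = 0.796).

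Over the other 4070 genes without *FZF1* the 2 exchanges correlated at −0.241, as a description across genes of arrays that share the pool and the probes. The difference between the exchanges passed the test for 15 genes (0.368%; 9 with a higher and 6 with a lower value under the *S. cerevisiae* noncoding region). With the replicate number as a block 67 genes passed, all 15 among them. In all 15 the 2 exchanges had opposite signs, but genes chosen by a large difference between the exchanges tend to have them, so nothing is read from this. Of the 15, 13 passed in the other exchange alone and 0 in the exchange under the *S. cerevisiae* noncoding region. *HSP30* read −0.40, −0.30 and −0.22 with the *S. paradoxus* allele and 1.38, 0.98 and 1.64 with P.C., so it differed by −1.64 there and by 0.61 between C.P. and *S. cerevisiae* (difference of the exchanges 2.25 ± 0.36, adjusted p = 0.017). The *S. paradoxus* arrays were the lowest of the 4 alleles, below all others.

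*PDR5* and *KAR2* had the same signs, with −1.12 and −0.61 in the other exchange (adjusted p = 0.017 for both differences between exchanges). *PDR5* read −1.26, −1.26 and −0.92 with the *S. paradoxus* allele and 0.36, −0.59 and 0.15 with P.C. From the iron and arginine lists the genes held *TIS11* (−0.90 in the other exchange) and *ARG3* (1.05). *ARG3* read 1.11, 1.12 and 1.43 with the *S. paradoxus* allele and 0.38, 0.63 and −0.49 with P.C., the highest values at 15 min being those of the *S. paradoxus* allele. The remaining genes were *MUP3*, *DOG1*, *GSF2*, *AGP1* and *YDC1*, with a negative difference in the other exchange, and *YHP1*, *AIR1*, *CLN1*, *MET7* and *RTG3*, with a positive one. *DOG1* is a sugar phosphatase gene, *AGP1* a broad amino acid permease, *YHP1* a homeobox repressor and *RTG3* a factor of retrograde signalling.

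The call of these 15 depended on single arrays. Over all genes, the count past this test was 0 without C.P. replicate 3, 0 without *S. cerevisiae* replicate 2 and 2 without *S. cerevisiae* replicate 3. It was 11 and 14 without C.P. replicates 1 and 2, and 21 without *S. cerevisiae* replicate 1. It was 8 and 5 without P.C. replicates 1 and 3, and 5 without *S. paradoxus* replicate 1 or 2. It was 90 and 215 without P.C. replicate 2 or *S. paradoxus* replicate 3, the Cy5 arrays of those groups. Of the 15 genes, all were kept in the last 2 fits, and 6 without P.C. replicate 1. Without C.P. replicates 1 and 2 and *S. cerevisiae* replicate 1, 8, 11 and 13 of them were kept. In a fit to the 12 arrays at 15 min alone 1 gene passed.

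**Figure D5:**
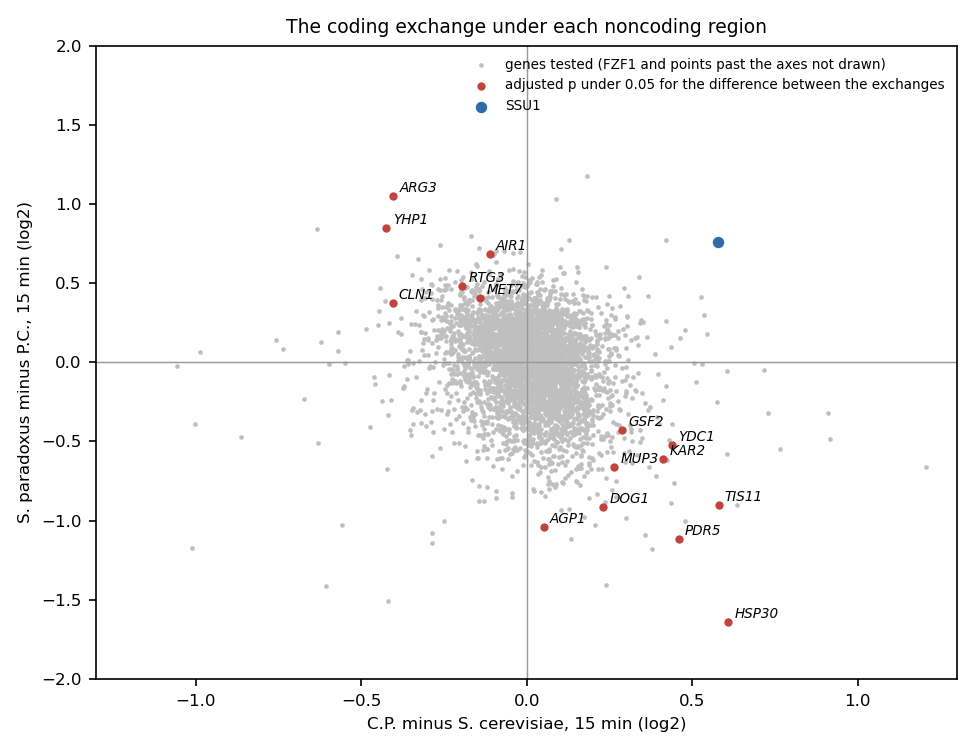
Difference at 15 min made by the *S. paradoxus* coding region under the *S. cerevisiae* noncoding region (horizontal, log2) and under the *S. paradoxus* noncoding region (vertical, log2), 1 point a gene, with *FZF1* and genes past the axes not drawn. The 15 labelled genes passed the test of the difference between the exchanges and lie in the quadrants of opposite sign, which that choice favours, while *SSU1* lies at 0.58 and 0.76.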

How the data were processed

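The authors hybridised each RNA sample with a pool of all samples on Agilent yeast V2 arrays and deposited log2 ratios, median normalized per array. Background correction and the filter behind empty features are not given in the sources used here. Features were matched to gene symbols by grid position, which the data bear out: features of a gene correlated at a median of 0.928 across arrays, against −0.0064 by equal numbers. Of 15744 features, 7592 had no symbol and were left out, and the 6 arrays held values for 12996 to 13175. The features of a gene were averaged, and from each array the median over its genes was subtracted.

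A linear model with a mean for each of the 8 groups was fitted to all 24 arrays with limma 3.58.1 (R 4.3.3). It took in 4071 genes measured on 2 or more arrays in each group, and p was adjusted by Benjamini-Hochberg within each contrast (limit 0.05). The fit takes arrays of 1 culture at 0 and 15 min as independent. Same-numbered arrays of the 2 groups deviated together from their group means (correlations 0.35, 0.327 and 0.473 for numbers 1, 2 and 3), so a replicate block was run. Number 3 is also the Cy5 array of both. Deviations in a group sum to 0, so array 3 also enters the values of numbers 1 and 2. Unlike-numbered Cy3 arrays correlated at 0.212 and 0.114. The difference between arrays 1 and 2, free of the Cy5 array, correlated at 0.218 between the groups. The fit was also run on simulated data with independent normal errors, unlike arrays that share a dye or a culture, and its outcome is not used here. Summaries used Python 3.11.15, numpy 2.4.6, pandas 2.3.3, SciPy 1.17.1 and matplotlib 3.10.9.

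Genes named are those past the test, the 12 highest and 12 lowest differences among genes whose arrays do not overlap, the 10 smallest p, all members of the lists of *FZF1* targets and construct loci, and among the 2 members of smallest p in each other list those that the text describes. The members, the 40 lists and the tests were chosen with earlier results of these data known. The number of arrays limits the precision.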

Additional observations from a re-analysis of the deposited data

Results flagged for a closer look

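For 15 genes (0.368%) the exchange of the coding region at 15 min differed between the *S. cerevisiae* and the *S. paradoxus* noncoding region. This was by a test of the difference itself (limma, adjusted p from 0.017 to 0.040). Of the 15, 0 passed without C.P. replicate 3 or without *S. cerevisiae* replicate 2 at 15 min. Without *S. cerevisiae* replicate 3 at 15 min 2 passed, and 1 did in a fit to the arrays at 15 min alone. Each value is the difference C.P. minus *S. cerevisiae*, less the difference *S. paradoxus* minus P.C., on the log2 scale. The positive values were those of *HSP30* (2.25), *PDR5* (1.58), *TIS11* (1.48), *DOG1* (1.14), *AGP1* (1.09), *KAR2* (1.02), *YDC1* (0.96), *MUP3* (0.93) and *GSF2* (0.72). The negative values were those of *ARG3* (−1.45), *YHP1* (−1.27), *AIR1* (−0.79), *CLN1* (−0.78), *RTG3* (−0.68) and *MET7* (−0.54).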

How the results depend on the processing

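Apart from single arrays left out, the count of 1 gene (*FZF1*) at 15 min became 0 when only its 6 arrays or only Cy3 arrays were fitted, and 99 in a reduced form of the study's model. That form had allele and feature as terms on these 6 arrays, without its other terms, and an unadjusted limit of P under 0.01. Chance alone would give 40.7 genes there if all values were independent. The form takes the features of a gene on 1 array as independent, though they correlated at a median of 0.928. The count of 99 thus cannot be read against 40.7. At 0 min the count of 0 became 2 with a dye term, 7 with array weights, 1 with a trended robust fit, 1 at an adjusted p under 0.10 and 3 with a dye term and replicate block together. Between the responses the count of 0 became 1 with array weights. For the exchange under the *S. paradoxus* noncoding region the count of 84 became 418 with a dye term, 835 with array weights, 1511 on Cy3 arrays, 2 on the arrays at 15 min, 55 on the higher numbered features, 205 at an adjusted p under 0.10 and 489 with dye term and block. For the difference between exchanges the count of 15 became 124 with a dye term, 499 with array weights, 469 on Cy3 arrays, 1 on the arrays at 15 min, 8 with culture as a random block, 29 with a trended robust fit, 53 at an adjusted p under 0.10 and 177 with dye term and block. Leaving out single arrays gave 0 to 1 genes at 15 min, 0 to 1 at 0 min, 0 between the responses, 7 to 688 for the other exchange and 0 to 215 for the difference between exchanges. The cause of these shifts was not tested. The fit with dye term and block together, and the counts without overlap under other scalings, were chosen after seeing the data.

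The replicate block left the count at 1 gene at 15 min and gave 281 genes for the other exchange and 67 for the difference between exchanges. Among differences at 15 min that did not pass the test, the sign turned on the lower numbered features for *AIR1* (0.021) and *YHB1* (0.062), and on the higher numbered features for *DAN1* (−0.28), *GEA2* (−0.023), *HXK2* (−0.004), *STB5* (−0.075) and *ZRT1* (−0.063). On Cy3 arrays it turned for *AGP1* (−0.051) and *ZRT1* (−0.19), and with array weights for *ZRT1* (−0.11). Without single arrays *AGP1* ran from −0.024 to 0.17, *AIR1* from −0.22 to 0.01, *LOC1* from −0.08 to 0.26, *TIM9* from −0.083 to 0.28, *YHB1* from −0.15 to 0.012 and *ZRT1* from −0.087 to 0.14. Of the medians of lists and classes under each alternative, 436 stayed within the spread of the array pairs and 46 did not.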
